A study of Mus musculus with 4 samples.

Results

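Lymphoid-homing chemokines and their receptors were followed as 8 genes, the 4 ligands Cxcl13, Cxcl12, Ccl22 and Ccl17 and the 4 receptors Cxcr5, Cxcr4, Ccr7 and Ccr4, out of 32285 genes counted. They were taken by symbol, and the set was picked in part because the level of Cxcl13 in macrophages had one of the widest ranges between samples, so that this range is given as a description and not as a finding. The study asked how the aryl hydrocarbon receptor (AhR) acts in colitis. It profiled cells of the colonic lamina propria, positively selected with anti-mouse CD45 magnetic beads and run through droplet single-cell RNA sequencing, from AhR-null (AhR-/-) mice and AhR+/+ littermates. All 4 samples carried the label DSS (dextran sulfate sodium, an agent that injures the colonic epithelium) and an age of 10 weeks, although a figure legend gave 8 weeks. The mice had drunk 2% DSS over 7 days, colons were collected on day 8, and each sample pooled 3 mice of the same group. The labels did not assign a genotype to a sample, and the names of the deposited files, which do carry genotype tags, were not used to assign one, so the samples are numbered 1 to 4, no sample was compared with another by a test, and each value is printed by sample.

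Homing chemokines set where leukocytes settle. CXCL13, made by stromal cells and follicular dendritic cells and also by some macrophages, draws CXCR5-bearing B cells and follicular helper T cells into follicles. CXCL12, a product of mesenchymal and endothelial cells, acts on CXCR4 and holds many leukocytes in bone marrow and tissue. CCR7 guides naive lymphocytes and matured dendritic cells towards its ligands CCL19 and CCL21 in lymph nodes, and CCL22 and CCL17, made chiefly by dendritic cells, attract regulatory and type 2 lymphocytes through CCR4.

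The files held 45229 cells, between 8493 and 13730 per sample, and between 72509408 and 135516016 unique molecular identifiers (UMIs, each a counted transcript). After filters on genes per cell, mitochondrial reads and doublet scores, 39550 cells were kept, with a median of 5634 to 7086 UMIs per cell by sample. Each cell was put into 1 of 21 classes by how many of that class's fixed marker genes had a UMI (at least 3), and none of the 8 genes was a marker. A class name stands for that gate. In all, 29420 cells entered a class, 8342 held markers of more than 1 lineage and were set apart as mixed, and 1788 passed no gate. The 10 genes that stood out most in each of the 17 classes compared included at least 1 marker of that class, and none of another class. The gate used these same markers, so this describes the classes and is no separate check of them. Fibroblasts, pericytes or muscle, endothelium and epithelium lack CD45, so their cells had passed through the bead selection. Their numbers were small, with 55, 72, 289 and 139 fibroblasts in samples 1 to 4. Sample pairs shared between 23 and 49 cell barcodes, at most 0.423% of the smaller sample. Levels are CPM, the UMIs of a gene for every 1000000 UMIs of all cells of a class in a sample, with exact Poisson 95% intervals that cover counting error only. They were compared between classes for 1 gene, and where genes are set side by side, as Cxcr5 beside Ms4a1, this is a description only.

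The promoters of 4 genes are shown because the study concerned AhR, whose dimer binds a DNA element with the core GCGTG. Each run is the 250 bases before the RefSeq start on mouse build GRCm38.p6, and capitals mark that core on either strand (GCGTG or CACGC) and the TATA box letters TATAAA on either strand (TATAAA or TTTATA).
Cxcl13, chr5:95956689-95956938, plus strand: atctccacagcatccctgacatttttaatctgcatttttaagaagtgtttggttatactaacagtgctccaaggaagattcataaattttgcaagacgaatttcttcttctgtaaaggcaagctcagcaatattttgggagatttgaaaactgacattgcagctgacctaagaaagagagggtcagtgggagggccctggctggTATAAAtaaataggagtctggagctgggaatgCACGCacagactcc
Cxcl12, chr6:117168285-117168534, plus strand: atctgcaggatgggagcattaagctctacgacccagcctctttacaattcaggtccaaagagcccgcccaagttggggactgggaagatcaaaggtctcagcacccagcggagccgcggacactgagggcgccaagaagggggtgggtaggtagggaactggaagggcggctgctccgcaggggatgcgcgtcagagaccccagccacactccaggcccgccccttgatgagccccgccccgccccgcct
Cxcr4, chr1:128592300-128592549, minus strand: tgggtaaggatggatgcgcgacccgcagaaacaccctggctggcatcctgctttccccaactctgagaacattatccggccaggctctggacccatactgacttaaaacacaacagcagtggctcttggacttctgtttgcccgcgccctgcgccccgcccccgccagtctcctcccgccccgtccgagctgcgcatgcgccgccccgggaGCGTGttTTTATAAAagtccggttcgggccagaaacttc
Ccl17, chr8:94810203-94810452, plus strand: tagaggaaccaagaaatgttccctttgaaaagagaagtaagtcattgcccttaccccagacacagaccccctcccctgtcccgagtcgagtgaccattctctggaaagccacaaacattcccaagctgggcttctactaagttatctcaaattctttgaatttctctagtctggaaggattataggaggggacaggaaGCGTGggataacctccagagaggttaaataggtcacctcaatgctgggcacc
In Cxcl13 the core lay at positions -14 to -10 on the opposite strand, with a TATA box at -46 to -41. In Cxcr4 the core lay at -39 to -35, beside a pair of overlapping TATA matches on opposite strands. In Ccl17 it lay at -52 to -48, and the window of Cxcl12 held neither motif. Of 6 genes with a promoter entry, Cxcl13, Cxcr4 and Ccl17 held the core, against 28.2% of all 32841 promoters searched. TATA letters stood in 12.4% of all promoters. A kappaB consensus was found in 7.25% of all promoters and in none of the 6. A match describes letters only, and no match says nothing of the factor.

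Each of the 8 genes reached at least 10 CPM in the sample median of a class, and 6 of them, Cxcl13, Cxcr5, Cxcl12, Ccr7, Ccl22 and Ccr4, had the same class highest in 4 of 4 samples. Among all 12764 genes that reached this level, 36.5% did so. Fibroblasts led for Cxcl13 and Cxcl12, B cells for Cxcr5, mature dendritic cells (DCs) for Ccr7 and Ccl22, and type 2 innate lymphoid cells (ILC2) for Ccr4, where T cells were taken as 1 class. Cxcr4 was highest in the class of NK cells or ILC1 in 3 samples and in B cells in the other. Ccl17 had no stable leading class, with conventional type 1 DCs (cDC1) highest in 2 samples.

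**Figure D1:**
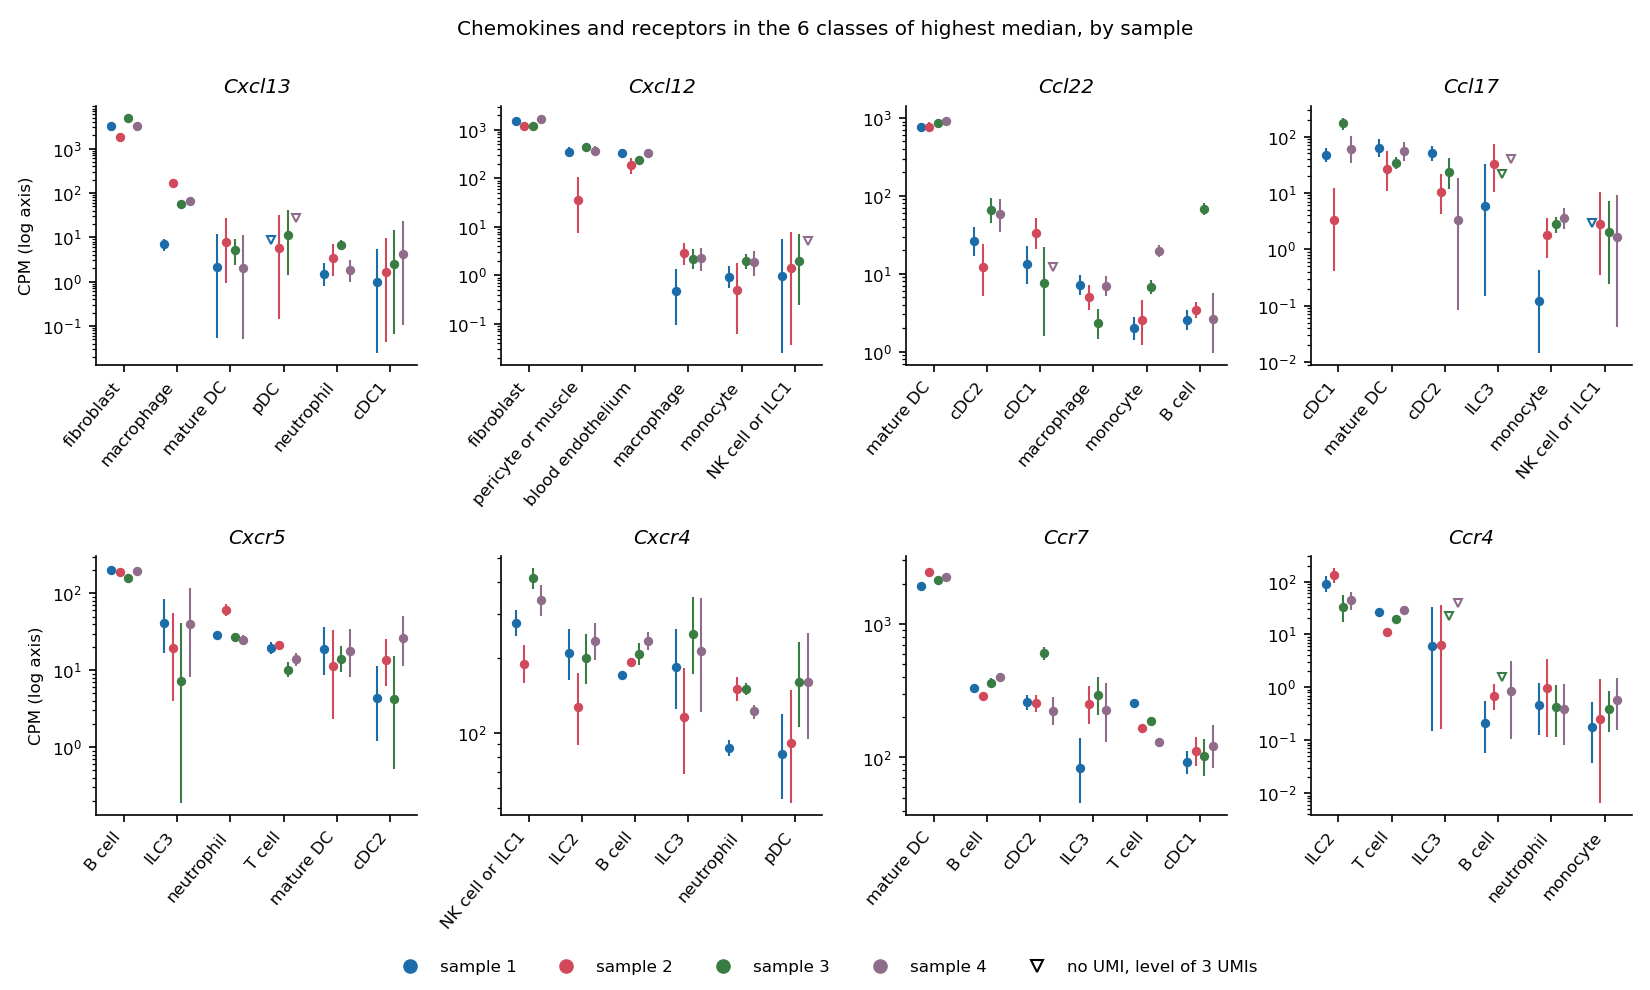
Level of each gene in CPM (log axis) in the 6 cell classes of highest median, with 1 point per sample, exact Poisson 95% intervals as bars, and open triangles at the level of 3 UMIs where a class had no UMI. Fibroblasts stand apart for Cxcl13 and Cxcl12, B cells for Cxcr5 and mature DCs for Ccr7 and Ccl22, while the classes of Cxcr4 and Ccl17 overlap.

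Cxcl13 (ENSMUSG00000023078, chr5:95956951-95961068, plus strand, 4 exon blocks), the follicle-forming chemokine, was at 3194, 1851, 4918 and 3176 CPM in fibroblasts of samples 1 to 4. Every other class was far below in every sample, and the next in order, macrophages, did not reach this range. A Cxcl13 UMI was found in 78.2%, 44.4%, 81.3% and 56.8% of fibroblasts, and in 57.7%, 36.1%, 72.1% and 48.2% after thinning each cell to 1000 UMIs. In T cells, which here served as a class expected to lack the transcript, the share was 0.781% to 2.80% (median depth 5801 UMIs, against 8019 in fibroblasts). Sample 2 was lowest by level and by share, and sample 3 highest by both. Between the highest and lowest sample the fibroblast level differed 2.66-fold, which ranked 495 among 4066 genes of this class. Cells with 10 or more Cxcl13 UMIs held 97.6% to 98.5% of the fibroblast UMIs in every sample, and they made up 27 of 55, 22 of 72, 189 of 289 and 59 of 139 fibroblasts.

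Fibroblasts with a Cxcl13 UMI were set beside those without for 12 genes of lymphotoxin-responsive stroma and for a few further stromal genes. Of the 12, Tnfsf13b and Grem1 were higher with Cxcl13 in 4 of 4 samples, and Il7 and Ackr4 were lower in 4 of 4. Both of the latter were sparse, with 1, 1, 2 and 0 UMIs of Il7 and 3, 0, 2 and 3 of Ackr4 in the Cxcl13-bearing cells. Clu was lower with Cxcl13 in samples 1, 2 and 4, and Pdpn was higher in samples 2, 3 and 4. Tnfsf11 had 2, 6, 79 and 11 UMIs in the cells with Cxcl13 and 7, 0, 0 and 2 in those without. Its level was lower with Cxcl13 in sample 1 and higher in samples 2, 3 and 4. Of the further stromal genes, Pdgfra was higher in samples 1 and 3 (1.39- and 1.77-fold) and lower in samples 2 and 4 (0.913- and 0.828-fold). Icam1 was higher in samples 1, 2 and 3 and at 0.996-fold in sample 4. The groups were not matched for depth. Vcam1, an adhesion molecule for lymphocytes, was at 1166, 1419, 1361 and 1312 CPM in the cells with Cxcl13 and at 504, 616, 649 and 264 CPM in those without, so it was higher with Cxcl13 in 4 of 4 samples (2.10- to 4.96-fold). Tnfsf13b, which encodes the B cell survival factor BAFF, was 1.503- to 6.62-fold higher with Cxcl13 in 4 of 4 samples. Grem1, an antagonist of bone morphogenetic proteins, was 1.36- to 1.83-fold higher in 4 of 4, and Cxcl12 1.08- to 2.20-fold higher. The lymph node ligand Ccl19 had 3, 9, 11 and 2 UMIs in the Cxcl13-bearing cells and 0, 16, 8 and 5 in the others. Its level was lower with Cxcl13 in samples 2 to 4. In the Cxcl13-bearing cells Ccl21a had at most 1 UMI per sample, and Cr2, a receptor typical of follicular dendritic cells, at most 2. Madcam1 and Bst1 were at 0 UMIs in the Cxcl13-bearing fibroblasts of every sample. Cells without Cxcl13 were few in sample 1, with 12 cells.

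In macrophages, the class on which the set was picked, Cxcl13 was at 6.90, 163, 54.8 and 66.3 CPM, from 44, 967, 493 and 445 UMIs. Sample 2 was highest and sample 1 lowest, 23.7-fold apart (95% interval by counting 17.5 to 32.8), which placed Cxcl13 in rank 11 among 8100 genes by this ratio. Leaving out sample 1 lowered the ratio to 2.98-fold, and leaving out sample 2 lowered it to 9.62-fold. The UMIs came from few cells. A UMI was seen in 21 of 714, 52 of 906, 90 of 1073 and 39 of 1032 macrophages, and 19, 28, 68 and 24 of these cells had exactly 1. After thinning, the share of macrophages with a UMI was 0.282%, 2.28%, 1.78% and 2.06%, against 0.224% to 0.286% of T cells, so sample 1 lay within the range of T cells. Cells with 10 or more UMIs numbered 1, 9, 11 and 10, and they held 52.3%, 91.4%, 79.3% and 91.9% of the macrophage UMIs. In sample 2, 1 cell alone held 407 of 967. Without the cells holding 10 or more, a comparison added after the values were seen and chosen on Cxcl13 itself, the levels were 3.30, 14.2, 11.5 and 5.43 CPM, or 4.32-fold apart. T cells of the same samples were at 1.07, 2.96, 2.98 and 0.856 CPM.

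**Figure D2:**
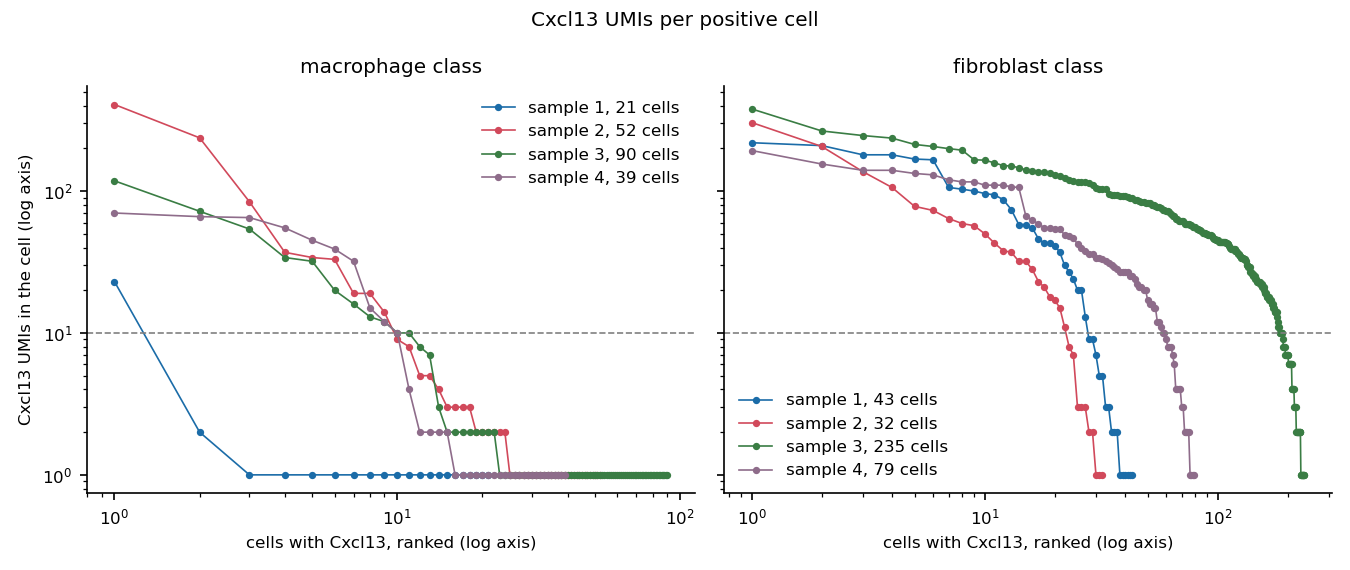
Cxcl13 UMIs in each cell with at least 1 (log axis) against the cell's rank (log axis), by sample, in macrophages (left) and fibroblasts (right), with a dashed line at 10 UMIs. Macrophage curves drop to 1 UMI after 2 to 24 cells, whereas 22 to 189 fibroblasts per sample lie at or above the line.

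These cells entered the class by the gate on the macrophage list, which also set aside cells rich in fibroblast markers, so the list values describe the cells and are no separate check of their identity. The macrophages with 10 or more Cxcl13 UMIs held the 9-gene macrophage list at 8997, 11174, 9547 and 10368 CPM, against 6270, 8936, 6114 and 6838 CPM in the other macrophages. Their 9-gene fibroblast list was at 0, 19.6, 57.6 and 0 CPM, against 12.1 to 31.1 CPM in the others. Col1a1, a collagen gene of fibroblasts, had 0 UMIs in all of them, but it was only at 0.471 to 2.57 CPM in the other macrophages. Dcn was at 19.2 CPM in sample 3, against 7.43 CPM in the others, on 2 UMIs. Cxcl12 was at 9.83 and 9.61 CPM in samples 2 and 3, against 2.75 and 2.14 CPM, on 1 UMI each. In the remaining samples both were at 0. C1qa, a complement gene of macrophages, had a UMI in each of these cells. Macrophages with no UMI of the fibroblast list, also compared after the values were seen, were at 7.01, 181, 37.5 and 73.2 CPM. Relative to fibroblasts of the same sample, the macrophage level of Cxcl13 was 0.00216, 0.0881, 0.0112 and 0.0209. The same quotient of 4 other fibroblast transcripts (Cxcl12, Col1a1, Dcn, Col3a1) lay between 0.000256 and 0.00241. The part of RNA from fibroblasts in the macrophage level was not tested.

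The Mrc1-positive gate, defined by 8 genes of resident macrophages such as the mannose receptor Mrc1, held Cxcl13 at 184, 364, 466 and 437 CPM. Single cells carried much of this: 1 of the 13 cells of sample 1 had all 23 UMIs, 1 cell of sample 2 had 237 of 410 and 1 cell of sample 3 had 118 of 197. Without the highest cell of each sample, an alternative added after the values were seen, the gate was at 0, 156, 192 and 348 CPM. Cells of this gate made up 1.82%, 17.4%, 5.41% and 10.6% of macrophages, lowest in the sample where macrophage Cxcl13 was lowest and highest where it was highest. The part of this share in the macrophage level was not tested. The Arg1 and Mmp12 gate, named by genes of lipid-handling and tissue-remodelling macrophages, was at 4.06, 341, 29.1 and 3.98 CPM, where 1 cell held 407 of the 434 UMIs of sample 2 and the level without it was 21.6 CPM. The Cxcl9 and Cxcl10 gate, named by interferon-induced chemokines, was at 4.002, 8.09, 98.5 and 136 CPM, and at 48.0 and 40.9 CPM in samples 3 and 4 without their highest cell. Macrophages in none of these gates were at 2.64, 39.2, 22.9 and 18.7 CPM, and at 2.32, 11.6, 14.98 and 9.07 CPM without it. Of the 31 macrophages with 10 or more UMIs, 15 were in the Mrc1-positive gate. Each gate asked for at least 3 genes of its list, not for the genes in its name. In the cells with 10 or more, Arg1 was at 0, 0, 19.2 and 443 CPM, against 48.2, 23.5, 396 and 334 CPM in the rest. Mmp12 was at 0, 68.8, 9.61 and 13.4 CPM against 123, 114, 191 and 206 CPM. Cxcl9 was at 3038, 9.83, 48.0 and 0 CPM against 270, 106, 58.2 and 44.5 CPM, and that cell of sample 1 was in the Mrc1-positive gate.

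**Figure D3:**
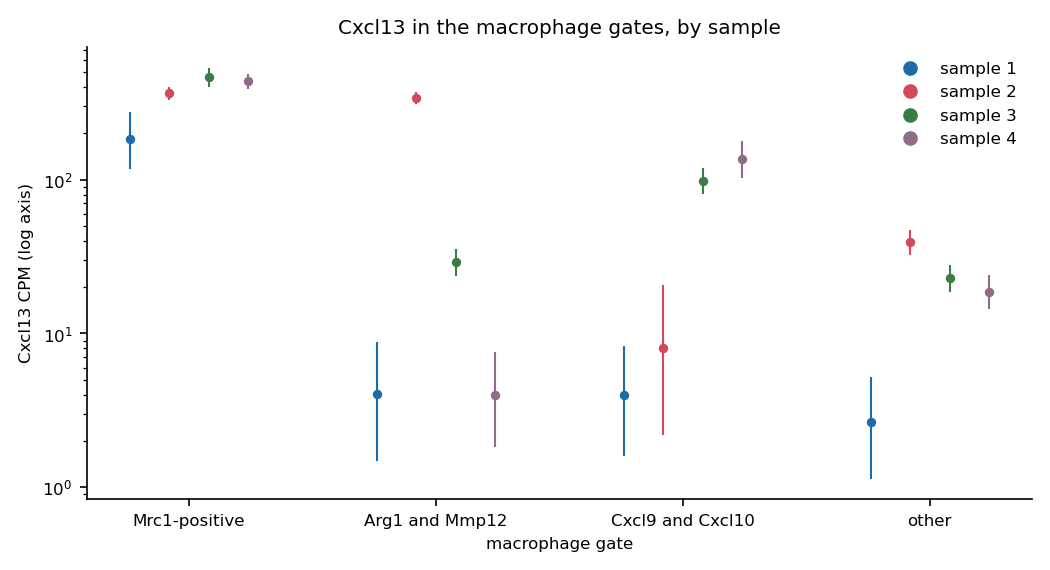
Cxcl13 level in CPM (log axis) in 4 macrophage gates, with 1 point per sample and exact Poisson 95% intervals as bars. The Mrc1-positive gate lies between 184 and 466 CPM, values that fall to between 0 and 348 CPM without the highest cell of each sample, and the other gates spread from 2.64 to 341 CPM.

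Against macrophages without a Cxcl13 UMI, those with at least 1 were higher in 4 of 4 samples for Kitl, the stem cell factor gene (2.35- to 5.12-fold), Vcam1 (1.76- to 3.04-fold), Ust (1.51- to 3.49-fold) and the chemokine Ccl8 (1.47- to 2.23-fold). Apobec3, Timp2, Pitpnc1, Dst and Hvcn1 followed, from 1.28 to 1.36 in their lowest sample. Cells with Cxcl13 were deeper, with medians of 11131, 7894, 8768 and 6238 UMIs against 8381, 5834, 7213 and 5720, and their fibroblast list was higher in 4 of 4 samples as well (16.2, 43.6, 22.6 and 45.8 CPM against 11.9, 29.9, 17.6 and 18.3 CPM). Vcam1 was itself at 832 to 1230 CPM in fibroblasts. The part of depth and of fibroblast RNA in these ratios was not tested.

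Cxcr5 (ENSMUSG00000047880, chr9:44511787-44561877, minus strand, 5 exon blocks), the receptor of CXCL13, was at 202, 188, 160 and 197 CPM in B cells. B cells were above every other class in each sample, and the samples lay within 1.27-fold of each other. The next class by median, ILC3, held 1 to 7 UMIs per sample. Ighd+ B cells, which bear the IgD of naive follicular cells, were at 203, 187, 181 and 206 CPM. Ighd- B cells were at 188, 174, 119 and 164 CPM, lower than Ighd+ cells in 4 of 4 samples. Germinal-centre B cells, gated on at least 3 of 8 marker genes, were numerous enough to read in sample 2 (122 cells, 223 CPM, 95% interval 202 to 245) and numbered 15, 2 and 1 in samples 1, 3 and 4. A Cxcr5 UMI was found in 53.8%, 48.2%, 41.0% and 41.8% of B cells, and in 12.1% to 16.4% after thinning, against 0 to 2.78% of fibroblasts, a class expected to lack it (median depths 4624 and 8019 UMIs). Cells with Cxcr5 also carried Ccr7 more often than cells without, at 72.3% to 80.1% against 54.2% to 59.2%. They were not matched for depth.

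Neutrophils held Cxcr5 at 28.9, 61.5, 26.9 and 24.9 CPM, above T cells (19.6, 21.1, 10.2 and 13.8 CPM) in 4 of 4 samples. A UMI was seen in 13.9%, 15.3%, 9.05% and 10.9% of neutrophils at median depths of 5997, 2978, 3514 and 5014 UMIs, and no neutrophil had more than 7. In B cells there were 0.608, 0.531, 0.511 and 0.642 Cxcr5 UMIs for each UMI of the B cell gene Ms4a1 (CD20). In neutrophils there were 12.5, 10.7, 16.9 and 11.2, in T cells 6.10, 4.63, 15.8 and 10.3, and in monocytes 0.757, 0.594, 1.76 and 1.62. Ms4a1 was sparse outside B cells, at most 5.765 CPM in neutrophils and 4.558 CPM in T cells. For each UMI of Cd79a, another B cell gene, there were 0.178 to 0.324 in B cells and 1.56 to 6.82 in neutrophils. T cells had 0.857 to 5.95 and monocytes 0.1845 to 0.968. The 3' end of Cxcr5 overlaps Bcl9l on the opposite strand over 110 exonic bases, and whether the counting used strand is not given in the sources used here. Bcl9l was at 24.3, 24.0, 39.2 and 33.7 CPM in neutrophils and at 58.4, 58.8, 56.0 and 61.0 CPM in fibroblasts, where Cxcr5 had 0, 2, 0 and 1 UMIs. The part of RNA from other cells and of reads from Bcl9l in the neutrophil level was not tested.

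**Figure D4:**
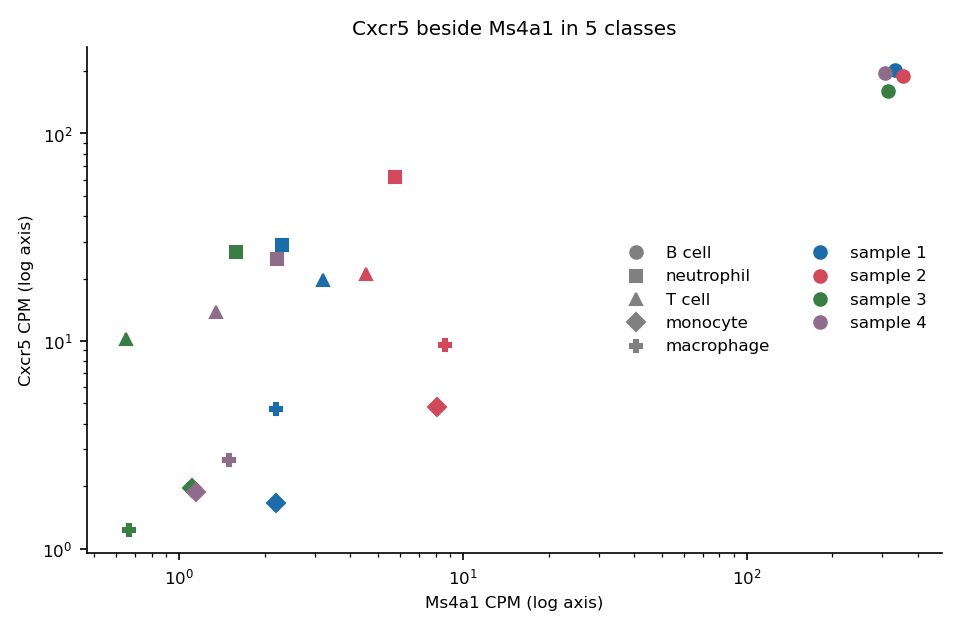
Cxcr5 against Ms4a1 in CPM (both axes log) for B cells, neutrophils, T cells, monocytes and macrophages, with 1 point per class and sample. Neutrophils and T cells lie at 10.2 to 61.5 CPM of Cxcr5 with under 6 CPM of Ms4a1, and B cells at 160 to 202 CPM of Cxcr5 with 306 to 355 CPM of Ms4a1.

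Among Cd4+ T cells without a UMI of the Cd8 genes, Foxp3+ cells included, 26 of 242, 59 of 314, 31 of 352 and 28 of 315 had a Cxcr5 UMI. Cd4+ Foxp3- T cells without Lef1, a factor of naive cells, were at 31.9, 66.4, 13.4 and 10.5 CPM, and those with Lef1 at 23.0, 57.4, 9.70 and 22.9 CPM, so sample 2 was highest in both. A list of 11 genes of follicular helper T cells did not stand together in the Cxcr5-bearing cells, with summed levels of 1802, 2455, 2556 and 2290 CPM against 1990, 2221, 2110 and 2668 CPM in the rest. Icos and Maf had the largest levels in these sums. Foxp3+ cells were not removed from either side of this comparison, and their part in it was not tested. Within the list, Slamf6 (1.17- to 2.26-fold) and Tox2 (1.12- to 2.03-fold) were higher with Cxcr5 in 4 of 4 samples. Pdcd1 was lower with Cxcr5 in samples 1, 3 and 4, Maf in samples 1, 2 and 4 and Icos in samples 1 and 4. Bcl6, Sh2d1a and Cebpa were lower in sample 1, Cd200 in sample 3 and Tigit in sample 4. Il21, a cytokine of follicular helper T cells, was 3.98-, 2.74- and 5.41-fold higher in samples 1, 2 and 4. In sample 3 it was at 0.762-fold, on 2 UMIs. Genes of highest lowest ratio were Aff3 (1.71- to 3.31-fold), Phactr2 (1.69- to 2.09-fold) and St6gal1 (1.41- to 4.89-fold). Usp6nl, Slc16a1, Prkcb, Tbc1d4, Arhgef3, Atl3 and Asap1 followed. The B cell list was at 165, 299, 21.2 and 184 CPM in the Cxcr5-bearing T cells and at 87.7, 261, 37.9 and 13.1 CPM in the rest, higher with Cxcr5 in samples 1, 2 and 4, and its part in these ratios was not tested. Median depth was also higher with Cxcr5 (7196 to 14026 against 4947 to 8821 UMIs).

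Cxcl12 (ENSMUSG00000061353, chr6:117168535-117181367, plus strand, 3 exon blocks), the ligand of CXCR4, was at 1509, 1191, 1185 and 1702 CPM in fibroblasts, and 92.7% to 95.2% of fibroblasts had a UMI (62.5% to 75% after thinning), against 0.223% to 0.635% of T cells. Its fibroblast range of 1.44-fold was narrower than that of Cxcl13. Blood endothelium was at 329, 184, 244 and 325 CPM. Pericytes or muscle were at 350, 36.2, 446 and 369 CPM, where sample 2 rested on 12 cells and 3 UMIs. The ranges of pericytes or muscle and of endothelium overlapped, and both lay below fibroblasts in every sample. No leukocyte class exceeded 7 CPM, and the fourth class in order, macrophages, had a median of 2.23 CPM. Both stromal ligands were found together in 74.5%, 43.1%, 78.2% and 56.8% of fibroblasts.

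Cxcr4 (ENSMUSG00000045382, chr1:128588199-128592293, minus strand, 2 exon blocks) was spread over the leukocytes. NK cells or ILC1 were at 276, 189, 415 and 339 CPM, ILC2 at 208, 127, 199 and 233 CPM, and B cells at 170, 192, 206 and 233 CPM. In the order of medians each class down to plasma cells overlapped its neighbour, so no step between neighbours among these 13 classes was clear of the spread between samples. Fibroblasts and epithelium, the classes expected to lack it, were at 2.07 to 8.47 CPM. In T cells Cxcr4 was at 101, 53.8, 148 and 166 CPM, and samples 3 and 4 were higher than samples 1 and 2. Samples 3 and 4 were also above samples 1 and 2 in Cd4+ Foxp3- Lef1+ cells (62.9, 72.7, 110 and 199 CPM) and Cd8+ cells (84.6, 29.2, 110 and 121 CPM), but not in Foxp3+ cells (142, 106, 129 and 166 CPM), where sample 1 was above sample 3. Cd8+ cells, which were lowest in Cxcr4 in sample 2, were 42.6% of T cells there and 16.7% to 21.3% in the other samples. Macrophages were at 96.1, 157, 66.6 and 71.2 CPM, highest in sample 2, as for Cxcl13.

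Ccr7 (ENSMUSG00000037944, chr11:99144196-99155077, minus strand, 3 exon blocks) was at 1916, 2446, 2146 and 2270 CPM in mature DCs, a gate of 41, 33, 196 and 52 cells set on 10 genes such as the actin-bundling gene Fscn1. A UMI was found in 92.7% to 96.2% of these cells and in 74.4% to 76.5% after thinning, against 2.16% to 6.94% of fibroblasts (median depth 9496 and 8019 UMIs). B cells followed at 331, 290, 363 and 399 CPM, without overlap with mature DCs. Conventional type 2 DCs (cDC2) were at 259, 255, 602 and 224 CPM, and in sample 3 their mature DC list was also highest, at 664 CPM against 279 to 469 CPM in the other samples. The mature DC list in mature DCs themselves was at 4557 to 5154 CPM. Among B cells, germinal-centre cells of sample 2 were at 112 CPM (95% interval 97.1 to 128), below Ighd+ cells of that sample at 313 CPM (304 to 322).

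Among T cells the Cd4+ Foxp3- Lef1+ gate was at 413, 367, 212 and 206 CPM for Ccr7, above the Lef1- gate (236, 140, 126 and 42.1 CPM) in 4 of 4 samples, although 1 cell held 73 of the 111 Lef1- UMIs of sample 1, which was at 88.1 CPM without it. Lef1+ cells of samples 1 and 2 were above those of samples 3 and 4 without overlap of their intervals. These cover counting error only, not the spread between cells or libraries, and 1 cell held 41 of the 207 UMIs of sample 4. Foxp3+ T cells showed the other order, at 116, 147, 234 and 178 CPM, with samples 3 and 4 above samples 1 and 2 but overlapping intervals of samples 2 and 4 (122 to 176 and 160 to 197 CPM). Cd8+ cells were at 258, 97.2, 156 and 45.7 CPM, and Trdc+ cells, which carry the gamma-delta receptor, at 41.3 to 64.8 CPM. NK cells or ILC1 ranged from 20.8 to 127 CPM, 6.11-fold, rank 11 among 2981 genes of that class.

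**Figure D5:**
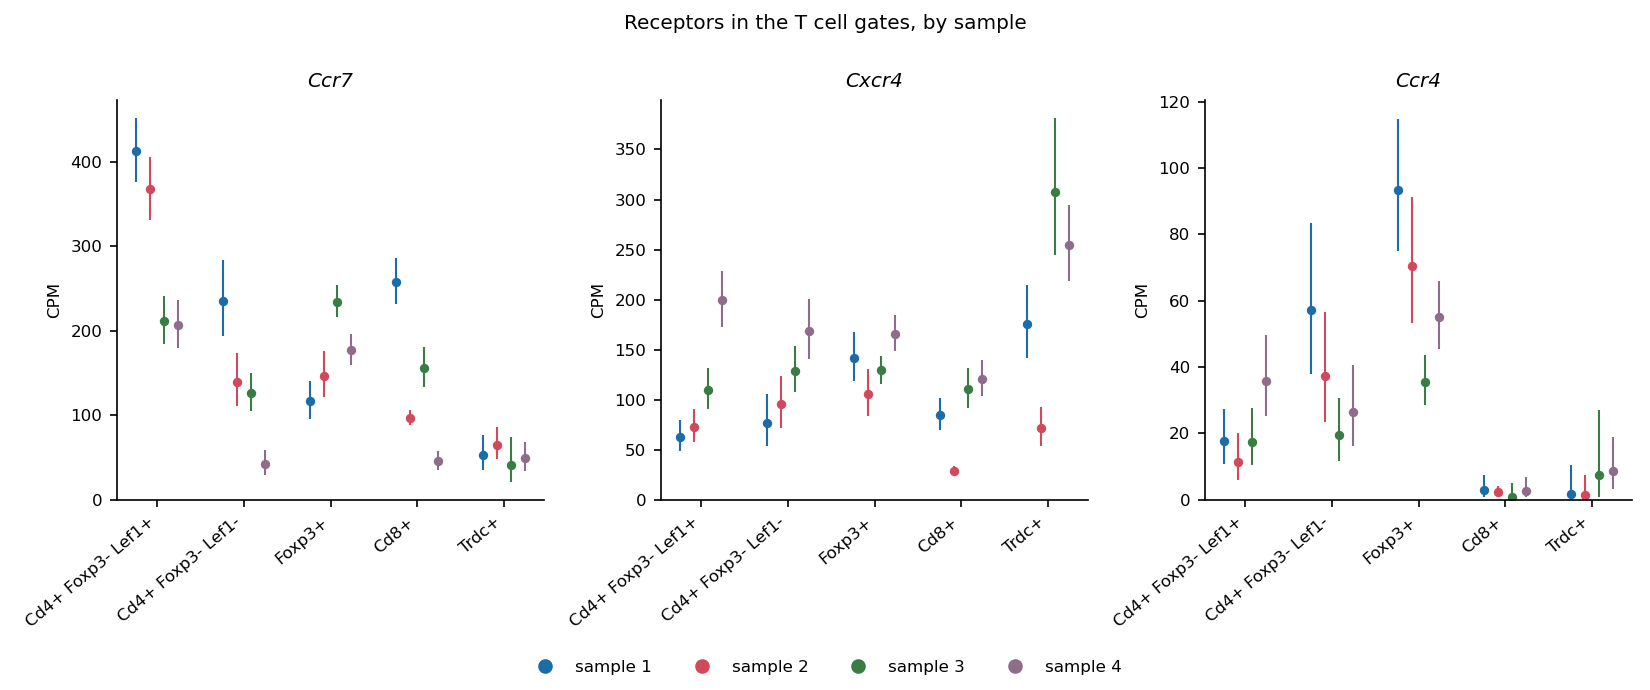
Ccr7, Cxcr4 and Ccr4 in CPM (linear axes from 0) in 5 T cell gates, with 1 point per sample and exact Poisson 95% intervals as bars. Ccr7 in the Cd4+ Foxp3- Lef1+ gate is at 413 and 367 CPM in samples 1 and 2 and at 212 and 206 CPM in samples 3 and 4, and Ccr4 is highest in the Foxp3+ gate.

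Ccl22 (ENSMUSG00000031779, chr8:94745590-94751699, plus strand, 4 exon blocks) and Ccl17 (ENSMUSG00000031780, chr8:94810453-94812036, plus strand, 3 exon blocks) are neighbours, 58753 bases apart, and encode the ligands of CCR4. Ccl22 was at 760, 765, 856 and 923 CPM in mature DCs, without overlap with cDC2 (26.5, 12.1, 66.0 and 58.4 CPM), the next class. A Ccl22 UMI was found in 73.2%, 54.5%, 71.9% and 76.9% of mature DCs, in 28.1% to 40% after thinning, and in 0.514% to 1.14% of T cells (median depths 9496 and 5801 UMIs). In B cells Ccl22 was at 2.57, 3.45, 68.1 and 2.60 CPM, but in sample 3 a single cell held 112 of 129 UMIs. In monocytes it was at 2.02, 2.53, 6.80 and 19.6 CPM, with 126 of the 137 UMIs of sample 4 in 5 cells. Values of those classes therefore rested on a handful of cells.

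Ccl17 was sparse. Mature DCs were at 63.6, 26.6, 34.3 and 56.0 CPM, from 30, 7, 68 and 28 UMIs, and every mature DC with a Ccl17 UMI (6, 2, 27 and 8 cells) also had a Ccl22 UMI. Type 1 DCs were at 47.1, 3.37, 171 and 61.3 CPM, yet the UMIs came from 2, 1, 1 and 3 cells, and all 67 UMIs of sample 3 from 1 cell. Type 2 DCs were at 50.9, 10.5, 23.4 and 3.24 CPM. The 3 DC classes overlapped in every pair. Outside them the largest median was 2.96 CPM, in ILC3.

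Mature DCs with a Ccl22 UMI were compared with those without in samples 1, 3 and 4, since sample 2 had only 18 such cells. The cells without Ccl22 numbered 11, 55 and 12, fewer in samples 1 and 4 than the positive cells for which sample 2 was left out. Epsti1 (1.85- to 2.01-fold), Cst3 (1.82- to 3.43-fold), Bcl2l14 (1.77- to 2.86-fold) and Rps27l (1.75- to 2.52-fold) were higher with Ccl22 in 3 of 3. So were Sirt7, Net1, Lima1, Osbpl3, Pvr and Isg15, which had as few as 1 to 6 UMIs in the cells without. The mature DC list was higher as well, at 4845, 5463 and 5518 CPM against 4344, 4053 and 3287 CPM, and so was the cDC1 list, at 1045, 734 and 788 CPM against 772, 417 and 428 CPM. Depth differed between the groups (9523 to 11186 against 3851 to 9249 UMIs), and the part of depth and of these lists was not tested.

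Ccr4 (ENSMUSG00000047898, chr9:114490316-114504916, minus strand, 5 exon blocks) was at 91.4, 133, 32.7 and 43.9 CPM in ILC2, from 33, 40, 13 and 27 UMIs. T cells followed at 26.4, 11.03, 19.8 and 29.2 CPM. ILC2 were above T cells in each sample and their ranges did not overlap, although in sample 3 the 95% intervals did (17.4 to 56.0 against 16.8 to 23.2 CPM). In samples 1 and 2 the ILC2 level was above that of samples 3 and 4. Intervals by counting error only were 62.9 to 128 and 95.3 to 182 CPM against 17.4 to 56.0 and 29.0 to 63.9 CPM. Those of samples 1 and 4 just overlapped. Within T cells, Foxp3+ cells were at 93.3, 70.4, 35.5 and 55.0 CPM, the highest T cell gate in 4 of 4 samples and above the ILC2 value in samples 1, 3 and 4, and 47.0%, 30.2%, 27.5% and 34.4% of them had a UMI (3.63% to 8.43% after thinning). The class level of T cells therefore rested partly on Foxp3+ cells, which were 10.7%, 4.57%, 24.5% and 17.5% of T cells. Cd8+ cells were at 0.897 to 2.94 CPM. No UMI was counted in fibroblasts, where the 0 UMIs of sample 3 allowed a level of up to 1.21 CPM (3 UMIs).

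Ranges between samples were set against all genes with at least 200 UMIs in the class. In macrophages 16.4% of genes differed over 2-fold between the highest and lowest sample, and 2 of 3 members tested did so, Cxcl13 and Cxcr4 (2.36-fold), a contrast that the choice of the set used. In fibroblasts the share was 31.8%, and Cxcl13 of 2 members passed. In monocytes it was 15.6% (1 of 3, Ccl22), in neutrophils 26% (2 of 3, Cxcr5 at 2.47-fold and Ccr7 at 2.5-fold), in B cells 12.4% (1 of 4, Ccl22) and in T cells 15.1% (3 of 4, Cxcr5, Cxcr4 and Ccr4). NK cells or ILC1 had 9.66% (2 of 2, Cxcr4 and Ccr7) and mature DCs 24.1% (0 of 2). In their leading class, Cxcr5, Cxcl12, Ccr7 and Ccl22 differed by 1.22- to 1.44-fold between samples.

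Genes whose class medians most resembled each member over the 17 classes are given as a description, since classes share libraries and depth. Eya4 (r = 0.946), Arsi (0.944) and Nova1 (0.943) resembled Cxcl13, and Tslp (0.994), Lamb1 (0.994) and Ltbp4 (0.993) resembled Cxcl12. Cxcr5 was closest to Ccr6 (0.825), a chemokine receptor of B cells, then 5530601H04Rik (0.810) and Zfp597 (0.790). For Cxcr4 they were Dock2 (0.981), a regulator of leukocyte migration, Ptprc (0.956), which encodes CD45 itself, and Ikzf1 (0.956). Ccr7 was closest to Cep350 (0.915), Il21r (0.912) and Rnf8 (0.901), and Ccl22 to Il12b (0.946), Dnah2 (0.934) and Gm13546 (0.931). Tmem131 (0.929), Gm38115 (0.928) and Timd4 (0.914) were closest to Ccl17. Ccr8 (0.957), another receptor of type 2 and regulatory lymphocytes, led for Ccr4, before Gm49890 (0.944) and Neb (0.926). Among the members, Ccl22 and Ccl17 (0.799), Cxcr5 and Ccr7 (0.728) and Ccr7 with Ccl17 (0.721) and with Ccl22 (0.719) were most alike, whereas the ligand and receptor pair Cxcl12 and Cxcr4 was at -0.73.

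Of 18 other homing ligands and receptors, 16 reached 10 CPM in a class and 7 of the 18 had the same class highest in 4 of 4 samples. Ackr4 was among these although its highest median was 6.47 CPM. Over all 12764 genes of at least 10 CPM this share was 36.5%, which stands beside each count of steady leading classes below. Ccl21a, a ligand of CCR7, stayed at a median of 0.813 CPM in its highest class, and Ccl19, the other ligand, was at 0 to 334 CPM in pericytes or muscle. Ackr3, a scavenger of CXCL12, was at 200 to 307 CPM in fibroblasts, the class that also led for its ligand. The CCR8 ligand gene Ccl1 was at 11.4 to 303 CPM in ILC2, and Ccr8 at 34.2 to 66.5 CPM in the same class. Of 10 genes of the lymphotoxin axis, which induces CXCL13 and CCL19 in lymphoid stroma, all 10 reached 10 CPM and 3 had a steady leading class. They were Lta (7.33 to 83.3 CPM) and Tnfsf11 (398 to 971 CPM) in ILC3, a class of 24, 30, 18 and 15 cells in which Lta rested on 4, 13, 1 and 1 UMIs, and Relb (694 to 772 CPM) in mature DCs, whose gate uses it. Of 10 stromal organisers, 9 reached 10 CPM and 6 had a steady leading class. Among the 6 were Vcam1 (832 to 1230 CPM), Pdpn (646 to 1183 CPM) and Tnfsf13b (109 to 257 CPM) in fibroblasts and Madcam1 (63.5 to 612 CPM) in blood endothelium. Of 9 regulators of chemokine receptor signalling, all 9 reached 10 CPM and 5 had a steady leading class, such as Rgs1 in ILC3 (2046 to 2924 CPM).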

How the data were processed

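For 4 droplet libraries of DSS-treated colon, the authors deposited gene by cell matrices of raw UMI counts. The submitters' processing notes name Cell Ranger 5.0.0, STAR, Seurat and mm10, whereas the file headers name Cell Ranger 7.0.1. Whether intronic reads were counted is not given in the sources used here. Cells with at least 200 genes and under 20% mitochondrial UMIs were kept. Doublets were taken as the highest Scrublet scores, 0.8% for every 1000 cells in a sample. Classes were gated on marker detection (at least 3 markers). A cell was called mixed when its second lineage exceeded 0.6 of the first. Ranking used the 17 of 21 classes that had 10 or more cells in each of the 4 samples. Mast cells (63), basophils (49), lymphatic endothelium (23) and enteric glia (17) were too few. Gates resting on exactly 3 markers held 0.541% (fibroblasts) to 27.6% (ILC3) of a class. Counts were summed per class and sample and scaled to CPM. Exact Poisson and binomial 95% intervals cover counting error only. Genotype is not in the labels, so samples stayed unassigned and no test between them was run. The genes named were the 8 members, fixed companion lists, the 3 genes of highest Pearson r per member (log2 of CPM plus 1, genes of at least 10 CPM), and the 10 genes of highest lowest ratio (at least 50 CPM, samples with at least 20 positive cells). Of the latter, 1 gene is not reported here. Members and lists were chosen with earlier results of these data known. Other settings were Leiden clusters (Scanpy 1.11.5), TMM factors (edgeR 4.0.16), filters, totals and gates. A cluster took the class of most of its gated cells, in 1 case only 9.42% of its cells. The match of clusters with 92.3% of gated cells was therefore partly built in. The gates and shares were also run on counts simulated from the sums of these same gated classes. Recovery was thus largely built in, so this checks the code and says nothing of mixed cells or of RNA from other cells. Positions are GENCODE M21 (GRCm38), where 32235 of 32285 identifiers matched. Promoters are RefSeq GRCm38.p6, which held 6 of the 8 genes, not Cxcr5 or Ccr7.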

Additional observations from a re-analysis of the deposited data

Results flagged for a closer look

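Cells outside the named classes, which enter no comparison above, held a large part of the members' UMIs. They carried 48.2% of Cxcr5, 41.6% of Cxcr4, 51.6% of Ccr7, 55.3% of Ccl22, 59.0% of Ccl17 and 48.7% of Ccr4 UMIs, but 13.5% of Cxcl13 and 17.3% of Cxcl12. Nearly all of it lay in the mixed cells, which were 21.1% of kept cells and held 37.9% of all UMIs. Had mixed cells been assigned to their best class, 48.6% of their Ccl22 UMIs would have gone to mature DCs, 42.3% of their Ccr7 UMIs to B cells, and 78.1% of their Cxcl13 UMIs to fibroblasts. What these cells are was not tested.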

How the results depend on the processing

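No paired analysis was possible because the labels give no groups and no comparison between samples was tested. Over the settings with doublets kept, a higher gene minimum, under 10% mitochondrial UMIs, 1 more marker per gate, Leiden clusters, mixed cells assigned, totals without mitochondrial and immunoglobulin genes, TMM and each sample left out, the class of highest median stayed the same in 93 of 95 recomputed values. The exceptions were Ccl17 with mixed cells assigned, where cDC1 led in 1 sample, and without sample 3, where mature DCs had the highest median in both. With all 4 samples, the number of samples led was unchanged in 60 of 63 values. Cxcr4 rose from 3 to 4 samples with clusters and with mixed cells assigned. When a sample was left out, Ccl17 was led by cDC1 in 1 to 2 samples. Ccl17 could not be recomputed with clusters, where no cluster was cDC1. The macrophage ratio of Cxcl13, the range used to pick the set, stayed within its counting interval in 11 of 14 settings. Leaving out sample 3 or 4 could not change it, since samples 2 and 1 were the extremes. The interval counts UMIs only, and 1 cell held 407 of the 967 UMIs of sample 2, so this count is no support for the range. The ratio lay between 2.98 and 23.7 with a sample left out. It was 4.32 without macrophages holding 10 or more Cxcl13 UMIs, a setting chosen after seeing the data. Leaving out the highest cell, also chosen then, moved 13 levels of Cxcl13 in macrophage gates and of Ccr7 in Cd4+ Foxp3- Lef1- T cells beyond their counting interval and 7 not. With 1 UMI as the only minimum, the share of genes over 2-fold between samples was 37.9% in macrophages, 36.6% in monocytes, 49.9% in neutrophils, 30% in B cells, 36.3% in T cells, 44% in NK cells or ILC1, 52.3% in mature DCs and 53.7% in fibroblasts, and 21.9% of genes had 1 class highest in 4 of 4 samples. Thinned to 1000 UMIs, the median share of cells with a UMI was 52.9% for Cxcl13 and 66.9% for Cxcl12 in fibroblasts, 15.8% for Cxcr5 in B cells, 24.5% for Cxcr4 in NK cells or ILC1, 74.9% for Ccr7 and 32.7% for Ccl22 in mature DCs, and 5.60% for Ccr4 in ILC2, so shares depend on depth.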
